A study of Arabidopsis thaliana with 16 samples.

Results

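Transcripts that were less abundant in both autophagy mutants of Arabidopsis thaliana at 60 days, and not at 30 days, made up 35 of the 22746 probe sets other than controls. Autophagy wraps cytoplasm and organelles in membrane and delivers them to the vacuole, where they are broken down and their nitrogen, carbon and minerals are released. ATG5 belongs to the conjugation system that attaches the ubiquitin-like ATG8 to lipid, and ATG9 is a membrane protein that supplies lipid to the growing autophagosome. In ageing rosettes this recycling feeds the export of nitrogen from old leaves, and mutants that lack it are known for early yellowing.

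The members were chosen by measured values of low-nitrate plants. With y = log2(signal + 32) averaged over the 2 arrays of a group, the difference of atg5 from Col-0 and that of atg9 from Col-0 had to be -1 or lower at 60 days, and both had to lie between -0.75 and 0.75 at 30 days. Probe sets that were lower by 1.5 or more at 60 days than at 30 days in Col-0 were to be left out, as were 69 probe sets of plastid-encoded genes. At 60 days 652 probe sets met the limit in atg5, 56 met it in atg9 and 45 met it in both. Of these 45, 10 lay outside the limits at 30 days and 35 within them, and the condition on Col-0 removed 0. Both differences at 60 days are taken from the same 2 Col-0 arrays, so a high reading of those arrays lowers both. The probe annotation gives 1 gene to 18 of the 35, several genes to 2 and does not list 15, which are given here by their probe set.

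The tissue was whole rosettes, and each array held RNA pooled from more than 6 plants. The groups on low nitrate (LN, 2 mM) were atg5, atg9 and wild-type Col-0 at 60 days, and the same 3 genotypes at 30 days. The groups on high nitrate (HN, 10 mM) were atg5 and Col-0, whose labels give 2 ages, 30 days in the titles and 60 days in the source field. The mutant labels name insertion lines for ATG5 (atg5-3) and ATG9, 1 line for each gene. All plants grew in short days of 8 h light and 16 h dark. The plants were raised in 2 cultures separated by months, and each culture gave 1 array to each of the 8 groups (n = 2). Values below are given for culture 1 and then culture 2. In pooled tissue, fewer cells of a type and less RNA per cell cannot be told apart.

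Of the 16 arrays 2 stood apart. Col-0 at 30 days in culture 1 had a lower quartile of signal of 89.3, against 26.6 to 39.0 in the other 15 arrays, and correlated with its replicate at r = 0.904. The atg5 array of culture 1 at 60 days correlated with its replicate at r = 0.954, and its actin control probes near the 3′ end were 9.05 times as bright as those near the 5′ end, against 1.5 to 3.04 times on the other arrays. A high ratio of this kind is a usual sign of degraded RNA. In the other 6 groups r was 0.971 to 0.979 across probe sets. The leaf markers RCA, SBPASE and PRK, for enzymes of carbon fixation, averaged 7183 to 27310 in the 8 groups. Of the root markers, PYK10 averaged 250 to 1302 and EXPA7 and EXPA18 at most 80.5, and 0 flower markers had a named probe set. The 4 senescence markers with a named probe set (PPDK, SAG29, WRKY53 and WRKY6) moved with genotype at 60 days and on high nitrate. Their summed signal at 60 days was 11536 and 6497 in atg5, 4384 and 4629 in atg9, and 4008 and 3230 in Col-0, and on high nitrate it was 5123 and 6990 in atg5, against 2763 and 3740 in Col-0. At 30 days the sums were 3061 and 1904 in atg5, 1502 and 1000 in atg9, and 1254 and 1966 in Col-0, without a common order in the cultures. PPDK had the highest mean of the 4 in every group and so weighs most in the sums. Each of the 4 had a higher mean in both mutants at 60 days and in atg5 on high nitrate, and their part in the results below was not tested.

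**Figure D1:**
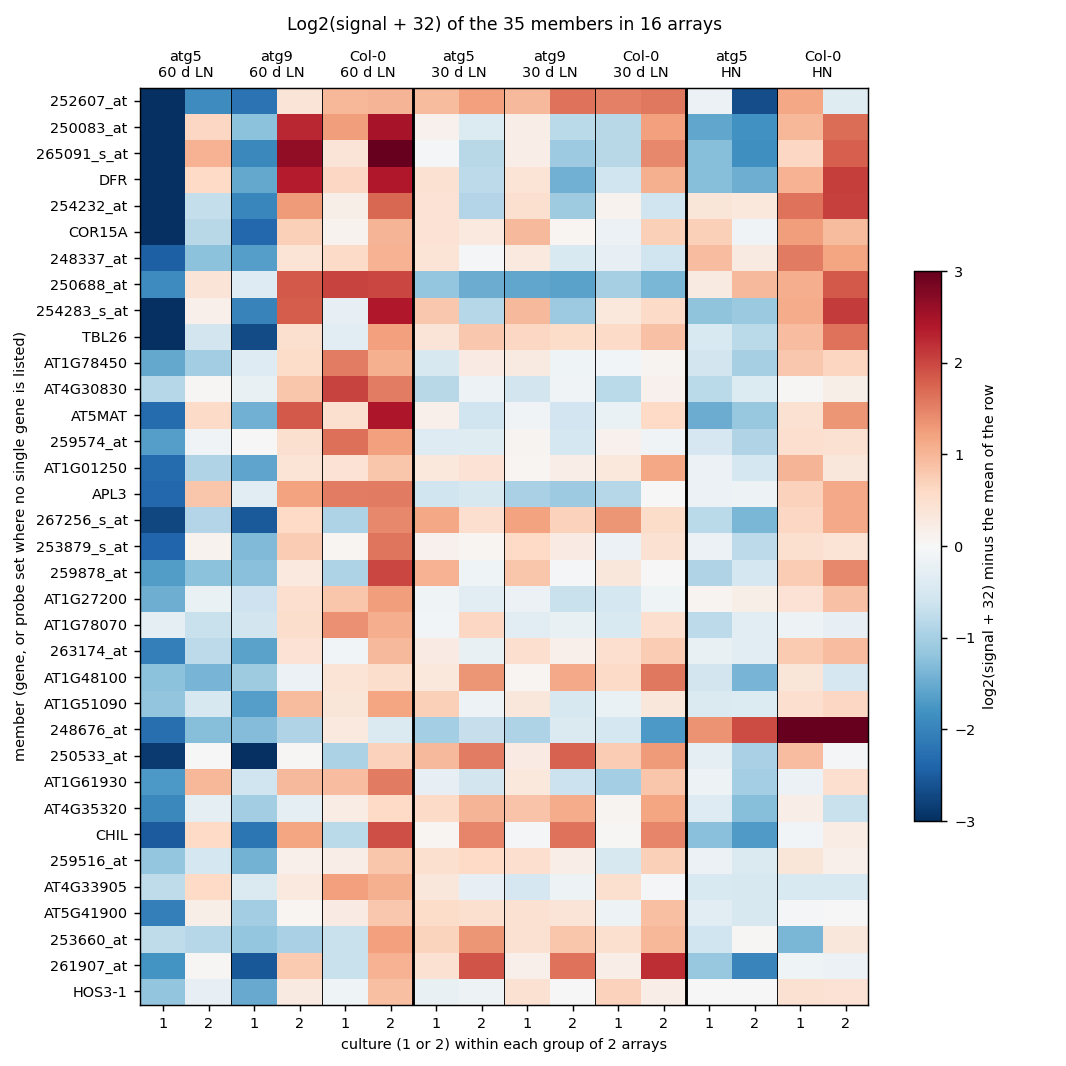
Level of the 35 members (rows, ordered by the mean of both differences at 60 days) in the 16 arrays (columns, cultures 1 and 2 within each group). Colour is log2(signal + 32) minus the mean of the row, and it saturates at 3 in either direction. The 2 culture 1 arrays of the mutants at 60 days are the darkest blue columns.

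At 60 days the 35 members had a median difference of -1.997 in atg5 (range -3.99 to -1.07) and -1.20 in atg9 (range -1.91 to -1.005) on the log2(signal + 32) scale, values that the rule fixed. The atg5 difference was the larger in 33 of the 35. At 30 days the medians were -0.11 in atg5 and -0.15 in atg9, beside -0.12 and -0.15 over all probe sets. The 3 members nearest to the limit of -1 were 261907_at, HOS3-1 and 253660_at in atg5 (-1.07 to -1.10) and AT5G41900, HOS3-1 and 259878_at in atg9 (-1.005 to -1.013). Just outside lay 258321_at at -0.83 in atg5, and 246922_at at -0.97 in atg9. The sugar transporter gene SWEET13 missed only the limit at 30 days, at -0.76 in atg5. The condition on Col-0 came nearest to acting on 250533_at, at -1.16.

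The cultures differed in these transcripts at 60 days. Within culture 1 the median difference was -2.55 in atg5 and -1.87 in atg9, and within culture 2 it was -1.72 in atg5 and -0.64 in atg9. Every member was lower than Col-0 in both cultures for both mutants. A difference of -1 or lower was seen in atg5 for 33 members in culture 1 (6.92% of all probe sets) and 28 in culture 2 (1.93%). In atg9 it was seen for 33 members in culture 1 (1.09% of all probe sets) but for 2 in culture 2 (0.47%), 259878_at and 253660_at. The atg9 means of the other 33 reached the limit through culture 1. These counts follow in part from the rule, which used the same arrays.

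At 60 days most members read higher in culture 2 than in culture 1, which held for 32 of 35 in atg5, all 35 in atg9 and 28 in Col-0. The median of culture 2 minus culture 1 was 1.84 in atg5, 2.02 in atg9 and 0.84 in Col-0, beside -0.03, -0.07 and -0.02 over all probe sets. A difference of 1 or more was shown by 25 members in atg5 (4.78% of all probe sets), 28 in atg9 (2.19%) and 16 in Col-0 (1.93%). Because of this spread the signals of atg5 stayed under both Col-0 signals in 26 members (25.5% of all probe sets) and those of atg9 in 17 (17.3%). The rule used these arrays at 60 days, and low culture 1 arrays of the mutants helped members to pass it. Nothing is therefore read from these shares. On high nitrate the culture difference had a median of -0.26 in atg5 and 0.14 in Col-0.

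**Figure D2:**
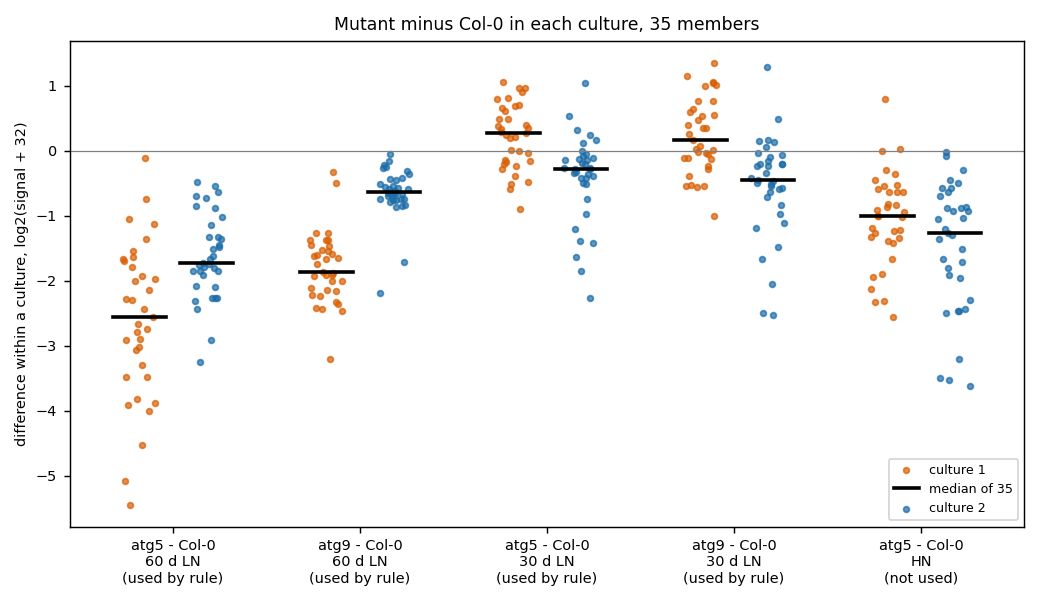
Difference of a mutant from Col-0 within each culture, on the log2(signal + 32) scale, for the 35 members in 5 comparisons (points, orange for culture 1 and blue for culture 2). Black bars are medians of the 35, such as -1.87 and -0.64 for atg9 at 60 days and -1 and -1.27 for atg5 on high nitrate.

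The mean at 30 days, on which the members were selected, hid differences between the cultures. In 18 of 35 members both mutants stayed within 0.75 of Col-0 in each culture taken alone, close to the share over all probe sets (54.1%). In 15 members both mutants were above Col-0 in culture 1 and below it in culture 2 (8.89% of all probe sets). The rule bounded the mean of these same values, which lets opposite signs pass, so nothing is read from these shares. The Col-0 array of culture 1 at 30 days is the one with the raised lower quartile, and its part was not tested. Within that culture the median atg5 difference at 30 days was 0.27 in the members and -0.27 over all probe sets.

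Without both arrays that stand apart, the median difference of atg5 at 60 days was -1.14, 21 of 35 remained at -1 or lower and 15 met the whole rule. That value sets the culture 2 array of atg5 against both Col-0 arrays, of which culture 1 was the lower. Against the Col-0 array of its own culture the median was the -1.72 given above. At 30 days, without the arrays that stand apart, 23 of 35 stayed within 0.75 in both mutants. Outside on the low side were 265091_s_at (-1.87 in atg5 and -1.88 in atg9), DFR (-1.23 and -1.57), 250083_at (-1.37 and -1.54) and AT5MAT (-0.83 and -0.95). So were 261907_at (-1.04 and -1.32), AT1G61930 (-1.23 and -0.999), AT1G01250 (-0.803 and -1.05) and AT1G48100 (-0.78 and -0.99). APL3 (-0.55 and -1.04) and AT1G78070 (-0.24 and -0.76) were outside in atg9 only. On the other side lay 248676_at (0.88 and 1.04), and 248337_at (0.76 and 0.51) in atg5 only. These differences rest on the culture 2 array of Col-0 alone. Against it the members on the low side, with DFR and AT5MAT among them, were already lower at 30 days. The atg9 array of culture 1 at 60 days, through which most members met the atg9 limit, had the next highest control ratios after the atg5 array of that culture, at 3.04 for actin and 1.24 for GAPDH, against 2.01 for GAPDH in that atg5 array and 0.952 in the Col-0 array of the same culture. The part of RNA quality in the results was not tested.

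The anthocyanin pathway makes the red and purple flavonoid pigments of stressed leaves, and the list of its genes held 2 members, DFR and AT5MAT. DFR, for dihydroflavonol 4-reductase, the enzyme that commits dihydroflavonols to anthocyanin, had signals of 107 and 3163.5 in atg5, 691 and 10719.9 in atg9, and 3177 and 11089.7 in Col-0 at 60 days. In culture 1 both mutants lay far under Col-0, and in culture 2 atg9 nearly reached it, with within-culture differences of -2.15 and -0.05 in atg9 and -4.53 and -1.80 in atg5. At 30 days DFR read 2841 and 1182.5 in atg5, 2767 and 741 in atg9, and 1355 and 4338 in Col-0. Col-0 was the lowest genotype in culture 1 and the highest in culture 2, so its mean differences of -0.40 in atg5 and -0.74 in atg9 are averages of opposite signs. On high nitrate DFR read 832 and 733 in atg5, against 4292 and 8753 in Col-0, with no overlap.

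AT5MAT, for the malonyltransferase that decorates anthocyanins, had signals of 35.2 and 469 in atg5, 91.2 and 1168 in atg9, and 431 and 1770.0 in Col-0 at 60 days. Its order was the same as that of DFR in each culture. On high nitrate it read 87.2 and 120.5 in atg5, against 426 and 807 in Col-0. CHIL, which is not on that list, for a chalcone isomerase-like protein that raises flux into flavonoids without being an enzyme itself, read 167 and 1674 in atg5, 216 and 2526 in atg9, and 610.2 and 4226 in Col-0 at 60 days. At 30 days its differences within each culture lay between -0.11 and 0.16, and so did not carry the opposite signs of DFR. The 3 genotypes kept the order atg5, atg9 and Col-0, lowest to highest, in both cultures at 60 days. On high nitrate it read 435 and 313 in atg5, against 1033 and 1267 in Col-0.

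Other genes of the pathway narrowly missed the rule at 30 days or followed it in part. AT4G14090, for an anthocyanin glucosyltransferase, was at -3.38 in atg5 and -1.64 in atg9 at 60 days but at -0.78 in atg9 at 30 days, and UF3GT was at -3.44 and -1.54 but at -0.99. UGT78D2 (-0.44 in atg5 and -0.59 in atg9 at 60 days) and UGT78D1 (-1.07 and -0.51), which add sugars to flavonols or anthocyanins, did not reach the limit in both mutants. Probe sets 250083_at (-3.65 in atg5 and -1.34 in atg9 at 60 days), 265091_s_at (-3.14 and -1.49) and 254283_s_at (-2.88 and -1.17), which have no single gene name here, also had both mutants above Col-0 in culture 1 and below it in culture 2 at 30 days, as DFR and AT5MAT did.

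**Figure D3:**
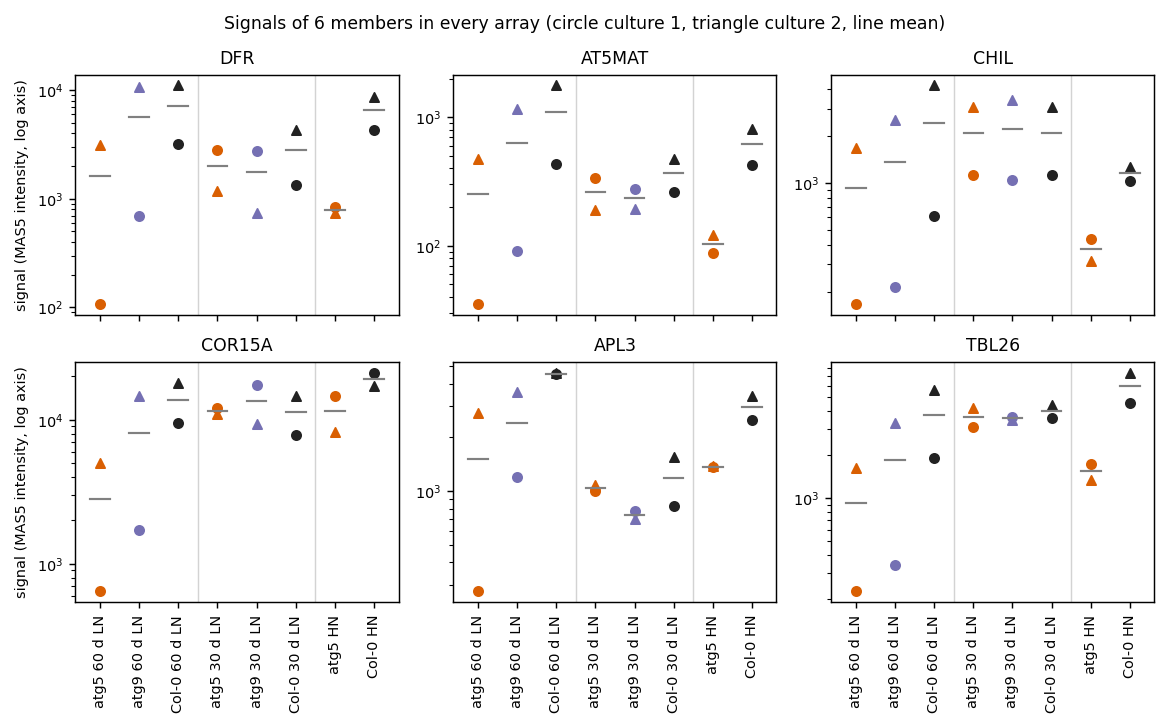
Signal (MAS5 intensity, log axis) of 6 members in every array, with culture 1 as circles, culture 2 as triangles and the mean of the 2 as a grey line; atg5 is orange, atg9 purple and Col-0 black. DFR, AT5MAT and CHIL on high nitrate have both atg5 points under both Col-0 points.

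COR15A encodes a small chloroplast protein that protects membranes in freezing and drying leaves. It had signals of 643 and 4989 in atg5, 1728 and 14551 in atg9, and 9523 and 18062 in Col-0 at 60 days. Both atg5 arrays lay below both Col-0 arrays, while atg9 in culture 2 lay between them. At 30 days the 6 low-nitrate signals ran from 7892 to 17550, with differences of 0.10 in atg5 and 0.26 in atg9. The related COR15B missed the rule, at -1.97 in atg5 and -0.92 in atg9 at 60 days, and the dehydrin genes LTI30 (-0.65 and -0.19) and COR47 (-0.28 and -0.57) lay further from it.

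APL3 encodes a large subunit of ADP-glucose pyrophosphorylase, the enzyme that supplies ADP-glucose for starch. Its signals were 276 and 2757 in atg5, 1207 and 3594 in atg9, and 4514 and 4599 in Col-0 at 60 days, and both mutants were under Col-0 in both cultures. The difference of 60 days from 30 days was -0.22 in atg5, 1.47 in atg9 and 1.97 in Col-0. Other starch genes did not meet the limit in atg9, with SBE2.2, for a starch branching enzyme, at -1.29 in atg5 and -0.35 in atg9, and DPE1, for an enzyme of starch breakdown, at -1.57 and -0.49.

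TBL26 is of the family that acetylates wall polysaccharides, and AT1G48100 encodes a polygalacturonase-like protein that acts on pectin. Neither is on the list of cell wall and growth genes, whose 16 named probe sets held 0 members and lay on both sides of 0 at 60 days, from EXPB3 at -2.14 in atg5 and -0.69 in atg9 to EXLA1 at 1.45 and 0.71. TBL26 read 225 and 1618 in atg5, 343 and 3323 in atg9, and 1895 and 5643 in Col-0 at 60 days, while the 6 signals at 30 days lay between 3119 and 4438. Its groups were close at 30 days and apart within each culture at 60 days. AT1G48100 read 236 and 208 in atg5, 269 and 523.5 in atg9, and 799.7 and 868 in Col-0 at 60 days, without overlap between either mutant and Col-0.

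AT1G01250, for a transcription factor of the DREB branch of the AP2/ERF family, read 40.2 and 161 in atg5, 88.7 and 446.5 in atg9, and 451 and 604.5 in Col-0 at 60 days. Both mutants lay under both Col-0 arrays. AT1G78450, for a SOUL heme-binding family protein, read 37.0 and 65.3 in atg5, 120.1 and 258 in atg9, and 548 and 383 in Col-0 at 60 days, against 111 to 209 in the 6 arrays at 30 days. Here too neither mutant overlapped Col-0, and the level of Col-0 at 60 days was above all 6 arrays at 30 days. AT4G30830 was dim, with 1.9 and 31.4 in atg5, 21.2 and 78.4 in atg9, and 220 and 145 in Col-0 at 60 days, and at most 34.9 at 30 days. Its lowest signals are under the lower quartile of their arrays, so the size of its difference is not well measured.

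The other 8 members with 1 gene had differences at 60 days between -1.10 and -1.87 in atg5 and between -1.005 and -1.24 in atg9. They are AT1G27200, the WD40-repeat gene AT1G78070, AT1G51090, for a protein with a heavy-metal-associated domain, AT1G61930, AT4G35320, AT4G33905, of the Mpv17/PMP22 family of organelle membrane proteins, the alpha/beta-hydrolase gene AT5G41900, and HOS3-1, of the family of fatty acid elongases. Of these AT1G78070 had signals of 893 and 684 in atg5, 740 and 1610.2 in atg9, and 2886.5 and 2387 in Col-0 at 60 days, which separates the groups in both cultures. Among members without a listed gene 252607_at had the lowest mean difference, with 64 and 407 in atg5, 320 and 2117 in atg9, and 3214 and 3254 in Col-0 at 60 days, and 3092 to 4991 at 30 days.

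The age differences of the members are given as a description only. At 60 days against 30 days the difference was 1 or more for 0 members in atg5 (8.54% of all probe sets), for 2 in atg9 (8.52%), which were APL3 and 250688_at, and for 15 of 35 in Col-0 (5.39%). A difference of -1 or lower was shown by 23 members in atg5 (7.13% of all probe sets), 11 in atg9 (5.34%) and 2 in Col-0 (10.9%). These counts follow in part from the rule in all 3 genotypes, since it used the same arrays, so nothing is read from them. The largest age difference in Col-0 was that of 250688_at at 3.19, whose signals at 60 days were 39.6 and 310.5 in atg5, 170.0 and 912 in atg9, and 1048 and 1018 in Col-0, against 55.1 to 100.4 at 30 days. In Col-0 the age difference of 18 members was within 1 of 0 (83.7% of all probe sets).

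The high-nitrate arrays were not used by the rule, and atg5 against Col-0 on them is the comparison that could test the members. It asks whether these transcripts are also lower in atg5 where nitrate is ample. The mean difference was below 0 in 34 of the 35 members (51.5% of all probe sets), and -1 or lower in 19 (0.721%). The median was -1.08 (range -3.02 to 0.25), beside -0.01 over all probe sets, at -1 within culture 1 and -1.27 within culture 2. Both atg5 arrays lay under both Col-0 arrays in 30 members (20.2% of all probe sets). Of the 100 most negative differences among all 22746 probe sets 15 were members, and of the 50 most negative 14 were. The members vary together between arrays, so these counts are not 35 separate observations.

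By limma's test on all 16 arrays with culture as a block, 0 of the 35 members passed an adjusted p of 0.05. The test called 4 probe sets lower (0.0176% of all probe sets) and 62 higher (0.273%). At an unadjusted p of 0.05, 10 members were lower (2.17% of all probe sets) and 0 higher. The test takes its error from all 8 groups, and the members differed between the cultures most at 60 days on low nitrate. The part of that spread in the count of members called was not tested. In a fit of the 4 high-nitrate arrays alone, which has 1 residual degree of freedom and a prior of 4.22, 16 members were called lower (0.492% of all probe sets). In the fit without both arrays that stand apart 1 was called, 248676_at (0.044% of all probe sets).

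**Figure D4:**
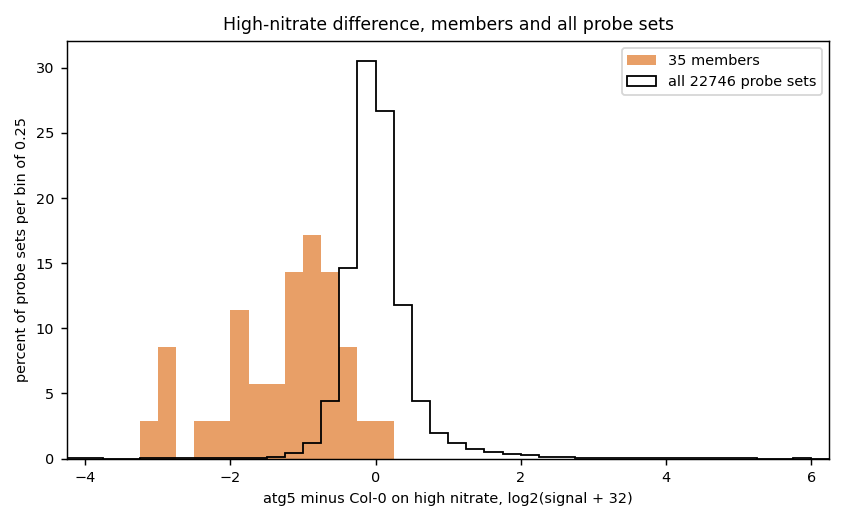
Share of probe sets per bin of 0.25 for the difference of atg5 from Col-0 on high nitrate, log2(signal + 32), for the 35 members (filled) and all 22746 probe sets (line). The members have a median of -1.08 and all probe sets one of -0.01.

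The lowest high-nitrate differences were those of 250083_at (-3.02 ± 1.13, SE of limma's fit), DFR (-2.92 ± 1.26, adjusted p = 0.653), 265091_s_at (-2.76 ± 1.32) and 254283_s_at (-2.76 ± 1.27). AT5MAT lay at -2.20 ± 0.84 (adjusted p = 0.532), TBL26 at -1.91 ± 0.73 (adjusted p = 0.532) and CHIL at -1.55 ± 0.75 (adjusted p = 0.742). In the fit of the high-nitrate arrays alone the adjusted p was 0.0167 for DFR, 0.0166 for AT5MAT, 0.0345 for CHIL and 0.0345 for TBL26. The smallest p of the main fit belonged to 248676_at at -2.30 ± 0.46 (adjusted p = 0.0801), followed by AT1G78450 at -1.501 ± 0.38 (adjusted p = 0.19). APL3 lay at -1.08 ± 0.64 (adjusted p = 0.869), with signals of 1359 and 1386 in atg5, against 2509.5 and 3433 in Col-0.

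Other members had small differences on high nitrate. COR15A, at -2.84 in atg5 at 60 days, lay at -0.79 ± 0.88, with signals of 14627 and 8251.5 in atg5, against 21187 and 17113 in Col-0, which did not overlap. AT4G33905 read 68.6 and 67.0 in atg5, against 68.5 and 68.7 in Col-0, a difference of -0.01 ± 0.43. Probe set 253660_at was the 1 member above 0, at 0.25 ± 0.43, and its groups overlapped. Across the 35 members the atg5 difference on high nitrate correlated with that at 60 days on low nitrate at r = 0.638, a description over probe sets that are not independent. Its correlation with the atg9 difference at 60 days was r = 0.156. The high-nitrate comparison shares no array with either.

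**Figure D5:**
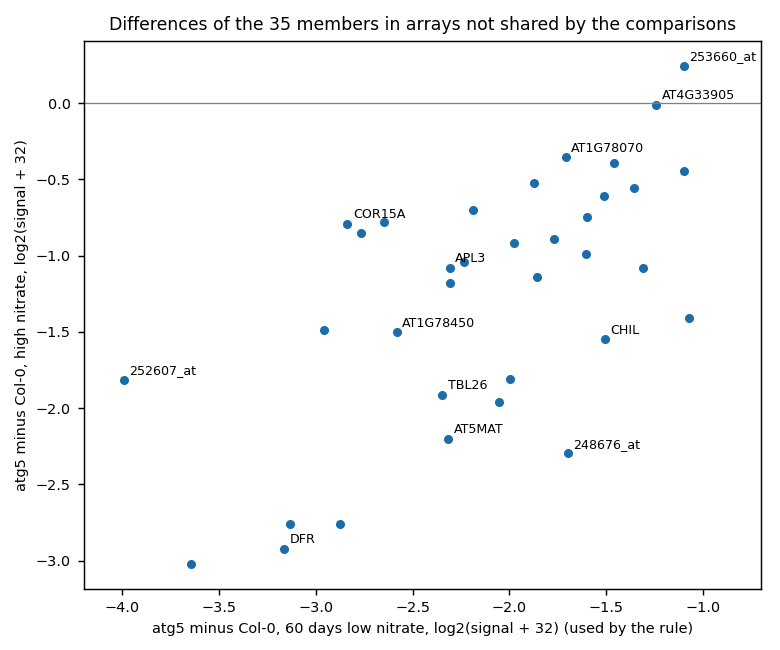
Difference of atg5 from Col-0 on high nitrate (vertical) against that at 60 days on low nitrate (horizontal, used by the rule), log2(signal + 32), 1 point per member. The point of 248676_at lies well below others of like horizontal value. COR15A lies at -0.79 on the vertical axis, near 250688_at (-0.85) and 248337_at (-0.78).

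The level in Col-0 was also compared between nitrate supplies. The difference of Col-0 on low nitrate at 60 days from Col-0 on high nitrate was within 1 of 0 for 30 members (96.3% of all probe sets). That of Col-0 on low nitrate at 30 days was so for 23 (87.2%). The rule used the Col-0 arrays on low nitrate, so nothing is read from these shares. The exception in size was 248676_at, with 1250.3 and 1933 in atg5, against 5583 and 10803 in Col-0 on high nitrate. Its 12 low-nitrate signals ran from 73.6 to 588, all under the 4 on high nitrate, and both atg5 arrays lay under both Col-0 arrays at 60 days as well as on high nitrate. The labels of the high-nitrate arrays give both 30 and 60 days. In 1 of these nitrate comparisons of Col-0, nitrate and age therefore cannot be told apart, and which one is not known. The conflict in the age labels holds for both genotypes on high nitrate alike.

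Of 14 pathway lists, 13 had a named probe set and 3 held members, which were DFR and AT5MAT (flavonoid and anthocyanin), COR15A (cold, dehydration and abscisic acid) and APL3 (sugar, starch and phosphate). The 6 of 32 flavonoid and anthocyanin genes with a named probe set were all below 0 in atg5 on high nitrate. Their median was -2.48, and 0 passed by limma's adjusted p, while 5 had an unadjusted p under 0.05. The 4 cold and dehydration genes were all below 0, with a median of -0.54, and 5 of the 7 sugar, starch and phosphate genes were, with a median of -0.32. Of either list 0 passed by limma's adjusted p, and 1 in each was lower at an unadjusted p of 0.05. These were COR15B and SBE2.2, which are not members. Beside these lists, all probe sets had a median of -0.01, and 51.5% of them were below 0. Of lists without a member, photosynthesis (9 of 9) and circadian clock and light (3 of 3) were also all below 0. Autophagy had 1 of 10 below 0 and defence 0 of 3. The other 10 lists, with 55 named probe sets, held 0 members. Few of their symbols had a named probe set, such as 3 of 25 for defence and 1 of 31 for nitrogen. An absence of members from a list is therefore no result about its pathway. Over the 72 probe sets of the pathway lists 0 were called lower and 1 higher in atg5 on high nitrate, the autophagy gene ATG8H.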

How the data were processed

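The submitters' processing notes name MAS5, without its version, for the 1 intensity the authors deposited per probe set and array. The deposited intensity values are linear, scaled to a common trimmed mean per array, with no detection calls, and the number of arrays limits the precision of every value. Signals were taken as log2(signal + 32), the scale of the rule, and 64 control probe sets were left out. No filter on dim probe sets was used, so all 35 members were tested; 32 lay over the 40th percentile of mean log2 signal.

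limma 3.58.1 in R 4.3.3 (lmFit, eBayes with an intensity trend) was fitted to 8 group means over 16 arrays. Culture, which the labels give by number, entered as a block, and p-values were adjusted by Benjamini-Hochberg over 22746 probe sets, two-sided, with a threshold of 0.05. Between atg5 and Col-0 on high nitrate the difference of the cultures correlated at r = 0.349 across probe sets; the 28 possible pairs of groups spanned -0.141 to 0.552. The procedure was tested on simulated data. The block removes the shift between cultures that all groups share. The p-values therefore measure how group differences varied between 2 cultures of pooled plants.

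Contrasts used by the rule are described without a test. Named genes were all members with 1 gene in the annotation, which lists 13513 probe sets with 1 gene, 503 with several and 8730 not at all. List symbols were matched to that annotation, and 5 that it gives to other genes were dropped. Members, lists and tests were chosen with earlier results of these data known. Names ending in s_at mark probe sets that may bind several related transcripts.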

Additional observations from a re-analysis of the deposited data

How the results depend on the processing

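In atg5 against Col-0 on high nitrate, 66 probe sets and 0 members were called. Without the replicate block the counts were 77 and 0. With signals under 1 set to 1 before log2, 29 probe sets were called, in the fit of the 4 high-nitrate arrays alone 615 with 16 members, and without both arrays that stand apart 118 with 1 member. Leaving out 1 high-nitrate array gave 0 to 81 probe sets, with 0 when Col-0 of culture 1 or atg5 of culture 2 was left out and 43 without Col-0 of culture 2, and 0 members in each case. The causes were not tested.

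The members' median at 60 days was -1.14 in atg5 without both arrays that stand apart. Leaving out 1 array gave -2.94 (without atg5 of culture 2) to -1.14 (without atg5 of culture 1), and in atg9 -2.15 (without atg9 of culture 2) to -0.21 (without atg9 of culture 1). The high-nitrate median kept its sign in all 9 alternatives run.

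The rule itself found 35 probe sets. It found 103 with signals under 1 set to 1 (33 of the 35), 16 without both arrays that stand apart (15), and, in settings chosen after seeing the data, 115 from culture 1 alone (20) and 28 from culture 2 alone (2). Without 1 array it found 6 (1 of the 35, without atg9 of culture 1 at 60 days) to 189 (35, without atg9 of culture 2), with 176 (32) without Col-0 of culture 1, 42 (12) without Col-0 of culture 2 and 21 (21) without atg5 of culture 1 at 60 days.

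On high nitrate the difference changed sign when 1 array was left out for 5 genes, none of them called. The range was -1.66 to 0.0765 for COR15A, -1.62 to 0.13 for AT1G61930, -1.33 to 0.11 for AT4G35320 (0.0871 without Col-0 of culture 1), -0.10 to 0.0805 for AT4G33905 (0.0656 without Col-0 of culture 1) and -0.82 to 0.0336 for AT5G41900. Among the limits, each group has 2 pools of plants, 6 members fall under the lower quartile of an array at least once, and the deposited values hold no detection calls.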
